A study of Mus musculus with 8 samples.

Results

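Secreted and membrane proteins enter the endoplasmic reticulum (ER) through a short N-terminal signal peptide. The signal recognition particle (SRP), a complex of an RNA and several proteins, binds this peptide as it leaves the ribosome and docks the ribosome at the SRP receptor in the ER membrane. Once the chain has passed into the Sec61 channel, the signal peptidase complex cuts the signal peptide off. Acinar cells of the exocrine pancreas make digestive enzymes that all follow this route, and the particle and the peptidase were both first studied biochemically in pancreatic microsomes. The 10 genes described here are the 5 of the signal peptidase complex (Spcs1, Spcs2, Spcs3, Sec11a and Sec11c) and 5 of the particle and its receptor (Srp9, Srp19, Srp68, Srp72 and Srprb). They were taken by name from 18820 genes measured, with earlier results of these data known. Each gene was read from an array feature annotated with that gene alone. A gene with several such features was read from the brightest of them. All 10 were measured, and no filter on low values was applied.

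The tested samples were 4 pancreas arrays of mice labelled inducible Sel1L1 knockout, set against 4 arrays labelled wild type, all of C57BL/6J background. Sel1L is the adaptor of the Hrd1 ubiquitin ligase, which removes misfolded proteins from the ER. Per the labels' protocols, knockout mice were fl/fl;ERCre+ and controls were their fl/fl;ERCre- littermates, so both groups carried loxP sites around exon 6 of Sel1l. The allele came from C57BL/6N embryonic stem cells of the KOMP resource (Sel1ltm1e(KOMP)Wtsi), and its lacZ-neo cassette had been removed with βActin-FLPe mice. Both groups, aged 8 to 20 weeks, received tamoxifen (5 mg/ml, 5 μl per g) on each of 3 days. Controls had no Cre, so loss of Sel1l and Cre activity cannot be told apart, and the actin promoter that drives ERCre is not limited to pancreas. The labels do not say that each array is a separate animal, so the p-values rest on a spread between samples that may be only technical.

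Sel1l, the targeted gene, was at 11.68, 11.66, 11.70 and 11.45 in the knockout arrays, against 12.37, 12.38, 12.38 and 12.39 in the wild type arrays. All values here are log2 RMA signals, where 1 unit is a 2-fold difference, and a difference is knockout minus wild type. The groups did not overlap, and the difference was -0.76 (SE 0.0788, limma adjusted p = 0.000196). Where the probes of this feature lie relative to the floxed exon is not given here, so the residual signal is not read as a share of cells that kept it. The 7 acinar markers measured averaged 12.82 to 12.92 per knockout array and 13.05 to 13.19 per wild type array, far above the array medians of 4.94 to 5.05, and all 7 had negative differences, of which 4 passed an adjusted p under 0.05 (Cela1 with the largest difference, -0.56). The 4 endothelial markers averaged 7.41 to 7.64 in the knockout and 7.10 to 7.37 in the wild type, with Pecam1 and Tek called higher in the knockout. The array averages of the other marker lists overlapped between the groups, for plasma cells 4.55 to 5.82 in the knockout and 4.28 to 5.17 in the wild type, and for macrophages 7.93 to 8.99 in the knockout and 6.56 to 9.11 in the wild type. Among the markers of these other lists, the islet hormone gene Ppy was called higher (1.33, adjusted p = 0.0487) and the T cell gene Cd8a lower (-0.49, adjusted p = 0.0467). Cd8a averaged 3.93 in the knockout and 4.43 in the wild type, both below the array medians. Wild type replicate 2 stood apart with the lowest macrophage average, 6.56, and the lowest stellate cell and fibroblast average, 7.25, against 8.41 to 9.11 and 8.47 to 8.82 in the other wild type arrays. It was not the lowest array of its group for any of the 10 genes, and it was the highest for 2 of them, Sec11c and Srp19. The part of these shifts in the results below was not tested, and in whole tissue fewer cells of a type and less RNA per cell cannot be told apart.

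Of the 10 genes, 6 were higher in the knockout and 0 lower at a limma Benjamini-Hochberg adjusted p under 0.05 over all genes (0 lower also at an unadjusted p under 0.05). Over the array 28.7% of genes were called, 16.1% higher and 12.6% lower. The members' median difference was 0.28, against -0.04 over all genes and 0.13 over the genes above the median level. It was 0.21 after quantile normalization (all genes -0.05), 0.21 with each array centred on its median (-0.11) and 0.20 after cyclic loess (-0.02). Sec11a stood out in size with a 2.34-fold rise, Srprb rose 1.52-fold, and Spcs1, Srp72, Spcs2 and Srp68 rose by less. Srp9, Srp19 and Spcs3 had positive differences that did not pass the test, and Sec11c was the 1 member with a negative one, which did not pass either. All 10 lay above the median level. In a fit limited to the 9410 genes above the median level, 8 of the 10 were called higher, against 32.0% of the genes in that fit. The groups did not overlap for 7 members, against 32.2% of all genes. Each of those 7 had an exact two-sided permutation p of 0.0286, the smallest that 4 against 4 can give. Groups that do not overlap always give this value, so it adds nothing to the non-overlap. Without wild type replicate 2 the number called higher was 5, with Srp19 gained and Spcs2 and Srp68 lost. The balance of directions over the array depended on scaling: 56.0% of all calls were higher in the knockout on the deposited values, 42.9% after quantile normalization and 36.3% with each array centred on its median. Under both, and after cyclic loess, 4 members stayed called (Spcs1, Sec11a, Srp72 and Srprb).

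**Figure D1:**
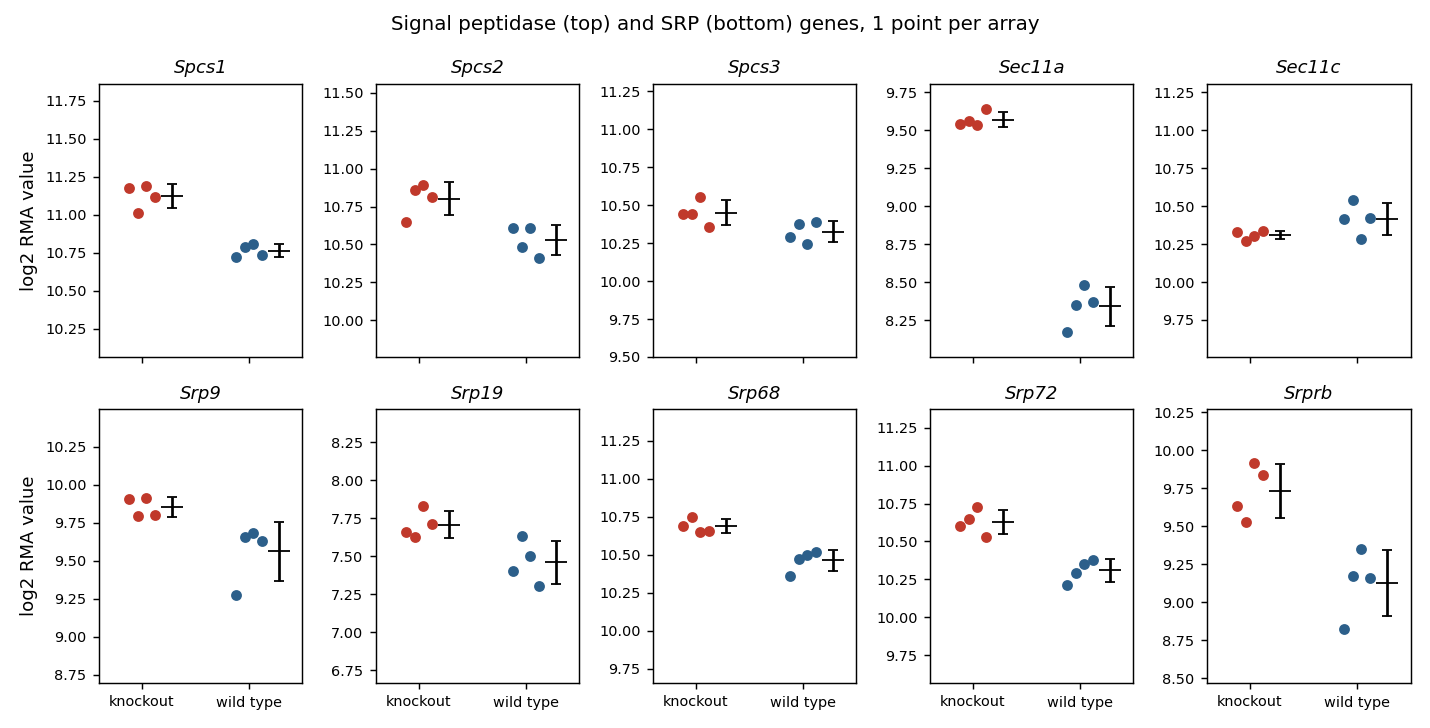
Log2 RMA value of each gene by array, with 4 Sel1L knockout arrays left and 4 wild type arrays right in each panel; bars give the mean ± SD (n = 4) and every panel spans the same log2 range. Sec11a shows the widest gap between the groups, while the groups of Sec11c, Spcs3 and Srp19 overlap.

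Upstream sequence was available in the RefSeq promoter table (build GRCm38.p6) for 6 members (Spcs1, Spcs2, Sec11a, Srp9, Srp72 and Srprb). The 250 bases before the annotated start are shown for the 3 members with the largest differences among those called under every setting, since Sec11a moved most and the other pair share a short motif. Capitals mark the letters GCCACGT, the core of sites bound by XBP1, a transcription factor of the unfolded protein response.
Sec11a, chr7:80947551-80947800, minus strand: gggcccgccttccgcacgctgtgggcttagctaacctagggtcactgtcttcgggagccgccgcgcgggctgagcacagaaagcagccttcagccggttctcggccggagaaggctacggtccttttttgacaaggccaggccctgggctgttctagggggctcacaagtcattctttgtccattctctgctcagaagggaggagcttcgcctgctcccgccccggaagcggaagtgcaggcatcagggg
Srprb, chr9:103202066-103202315, minus strand: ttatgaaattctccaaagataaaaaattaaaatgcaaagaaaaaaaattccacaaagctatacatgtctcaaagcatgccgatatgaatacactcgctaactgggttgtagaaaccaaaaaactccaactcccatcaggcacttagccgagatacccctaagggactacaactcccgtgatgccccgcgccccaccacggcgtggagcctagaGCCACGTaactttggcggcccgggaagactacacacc
Spcs1, chr14:31001667-31001916, minus strand: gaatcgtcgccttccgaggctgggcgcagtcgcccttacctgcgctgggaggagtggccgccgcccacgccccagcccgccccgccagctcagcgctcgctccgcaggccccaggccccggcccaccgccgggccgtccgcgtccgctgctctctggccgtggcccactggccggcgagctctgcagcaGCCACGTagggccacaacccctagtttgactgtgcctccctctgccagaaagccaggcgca

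Both strands were searched for 5 motifs of ER stress and amino acid stress factors. GCCACGT was present before the start of Srprb (bases 37 to 31 before it) and of Spcs1 (bases 61 to 55), on the strand of the gene in both. The windows of Sec11a, Srp72, Spcs2 and Srp9 did not hold it, so it was in 2 of the 6 member windows. It was in 2.02% of the 32851 promoter windows in the table. The ER stress element (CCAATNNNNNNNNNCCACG), the ER stress element II (ATTGGNCCACG), the UPR element (TGACGTGG) and the amino acid response motif TGATGCAA were in none of the 6 members' windows, and in 0.113%, 0.0304%, 0.563% and 0.791% of all windows. TGACGTGG and GCCACGT can overlap on opposite strands. These are letter matches in a fixed window, and no binding was measured. The 6 windows held 46.8% to 74% G and C, against a median of 52.4% over all windows, and 11 to 26 CpG dinucleotides, against a median of 6.

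The 2 catalytic subunits of the signal peptidase, Sec11a and Sec11c, are paralogues, and a complex holds one or the other. Sec11a was at 9.54, 9.56, 9.53 and 9.64 in the knockout arrays, against 8.17, 8.35, 8.48 and 8.37 in the wild type arrays. Every knockout array lay more than 1 log2 unit above every wild type array, and the knockout values lay closer together. The difference was 1.23 (SE 0.0841, 95% interval 1.04 to 1.42, limma adjusted p = 1.94e-05), and 1.40% of all genes had a larger one in either direction. Leaving out each array in turn gave 1.17 to 1.27. Across all alternative settings the lowest value was 1.10, and the call held in 17 of 17.

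Sec11c was at 10.33, 10.27, 10.31 and 10.33 in the knockout arrays, against 10.42, 10.54, 10.28 and 10.42 in the wild type arrays. The groups overlapped through wild type replicate 3, the lowest of its group. The difference was -0.11 (95% interval -0.28 to 0.07, limma adjusted p = 0.321), so neither a small fall nor no change is excluded by the interval, while a rise like that of Sec11a lies outside it. It was called in 0 of 17 alternatives, where it ranged from -0.18 to -0.06.

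The contrast between the paralogues was tested within arrays, where array scaling largely cancels. The log2 signal of Sec11a minus that of Sec11c was -0.79, -0.71, -0.77 and -0.69 in the knockout arrays, against -2.24, -2.19, -1.80 and -2.05 in the wild type arrays. Probes of different genes respond differently, so these values do not say which paralogue was more abundant, and only their change between genotypes is read. All knockout values exceeded all wild type values. The change was 1.33 (means -0.74 ± 0.0470 in knockout and -2.07 ± 0.198 in wild type, SD, n = 4 each). The exact two-sided permutation p was 0.0286, the smallest these 70 splits can give. Sec11a by itself separated the groups by more than the whole range of Sec11c (10.27 to 10.54). This p-value was therefore fixed by the Sec11a gap and adds nothing to it.

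**Figure D2:**
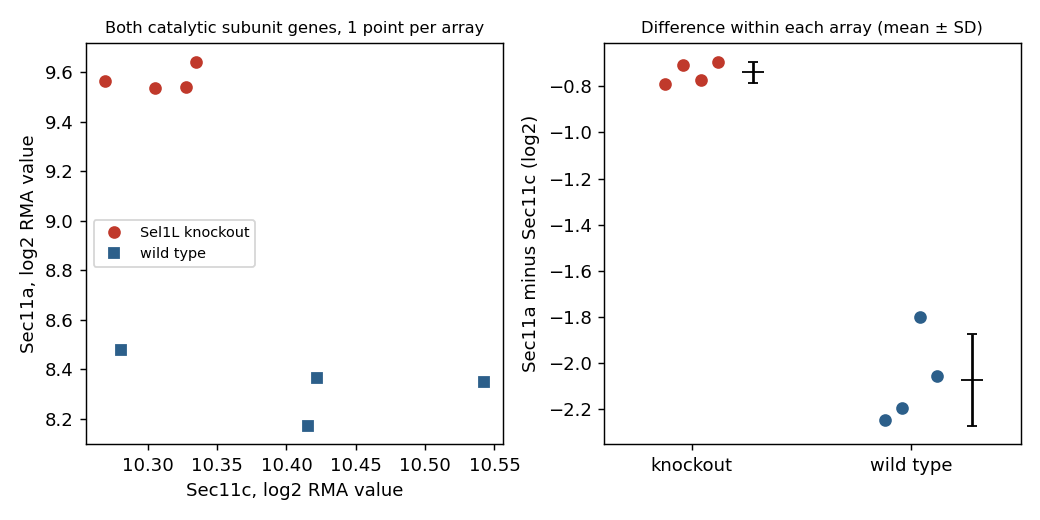
Left, log2 RMA values of Sec11a and Sec11c, 1 point per array, Sel1L knockout circles and wild type squares; right, Sec11a minus Sec11c within each array with mean ± SD (n = 4), knockout left. The knockout arrays lie between -0.79 and -0.69 and the wild type arrays between -2.24 and -1.80.

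The noncatalytic subunits Spcs1, Spcs2 and Spcs3 surround the active subunit. Spcs1, a small membrane subunit, was at 11.18, 11.01, 11.19 and 11.12 in the knockout arrays, against 10.72, 10.79, 10.81 and 10.74 in the wild type arrays. No knockout array reached down to the wild type range. The rise was 0.36 (SE 0.0740, 1.28-fold, limma adjusted p = 0.00674), and it stayed called in 17 of 17 alternatives with a difference of at least 0.25.

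Spcs2, whose product contacts the Sec61 channel, was at 10.65, 10.86, 10.89 and 10.81 in the knockout arrays, against 10.61, 10.49, 10.61 and 10.41 in the wild type arrays. The groups were separated by only a few hundredths, between knockout replicate 1 and wild type replicates 1 and 3. Spcs2 rose by 0.27 (SE 0.0860, 1.21-fold, adjusted p = 0.0396). This call was lost in 9 of 17 alternatives, among them all 3 other scalings (adjusted p = 0.104 to 0.136, differences 0.19 to 0.21) and without knockout replicate 2, 3 or 4 or wild type replicate 2 or 4 (0.0764 to 0.107).

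Spcs3, the subunit whose budding yeast counterpart is needed for cleavage, was at 10.44, 10.44, 10.56 and 10.35 in the knockout arrays, against 10.29, 10.38, 10.24 and 10.39 in the wild type arrays. Knockout replicate 4 lay below wild type replicates 2 and 4. The difference was 0.12 (95% interval -0.05 to 0.30, limma adjusted p = 0.247) and did not pass the test under any of 17 alternatives. Within the peptidase complex the 5 differences thus spanned from -0.11 to 1.23, with a median of 0.27, and the change within arrays was tested only for the catalytic pair.

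In the signal recognition particle, Srp68 and Srp72 form a heterodimer on the S domain of the particle's RNA, the domain that also carries the signal-binding subunit. Srp72 was at 10.60, 10.65, 10.72 and 10.53 in the knockout arrays, against 10.21, 10.29, 10.35 and 10.38 in the wild type arrays. The lowest knockout array lay above the highest wild type array. The rise was 0.32 (SE 0.0776, 1.25-fold, limma adjusted p = 0.0146), called in 17 of 17 alternatives, with adjusted p up to 0.0484.

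Its partner Srp68 was at 10.69, 10.75, 10.65 and 10.66 in the knockout arrays, against 10.36, 10.47, 10.50 and 10.52 in the wild type arrays. No overlap was seen between the groups, and the rise was 0.22 (SE 0.0723, 1.17-fold, adjusted p = 0.0432). That call was lost in 12 of 17 alternatives: without any one of the 8 arrays (0.0527 to 0.110) under the 3 other scalings (0.147 to 0.163, differences 0.15) and with the replicate number as a block (0.0934).

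Srp19, which helps to assemble the S domain, was at 7.66, 7.63, 7.83 and 7.71 in the knockout arrays, against 7.40, 7.63, 7.50 and 7.30 in the wild type arrays. Wild type replicate 2 reached the knockout range. The difference was 0.25 (95% interval 0.04 to 0.45, unadjusted) with an adjusted p of 0.0687 in limma. Without wild type replicate 2 it was 0.31 (adjusted p = 0.0369), and after quantile normalization 0.09 (adjusted p = 0.548).

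Srp9 pairs with Srp14 on the Alu domain of the particle, which slows translation until the ribosome has docked. Srp9 was at 9.90, 9.80, 9.91 and 9.80 in the knockout arrays, against 9.27, 9.66, 9.68 and 9.63 in the wild type arrays. The groups did not overlap, and wild type replicate 1 lay far below its group. The difference was 0.29 (95% interval 0.06 to 0.52, unadjusted, limma adjusted p = 0.0581), and 0.20 without that array (adjusted p = 0.0859).

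A second feature of Srp9, dimmer and therefore not the one kept, was at 7.72, 7.70, 7.76 and 7.71 in the knockout arrays, against 6.73, 7.26, 7.33 and 7.28 in the wild type arrays. Its difference was 0.57, and it was called when every feature was tested by itself (adjusted p = 0.00980). The 2 features of Srp9 thus had the same sign but fell on different sides of the threshold. Which of them reads Srp9 itself and not a related copy could not be told from the annotation, so whether Srp9 changed stays unsettled. With their mean in place of the brighter feature Srp9 passed, at 0.43 (adjusted p = 0.0198).

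The receptor subunit Srprb, a GTPase that anchors the receptor in the ER membrane, moved most among the 5 targeting genes. It was at 9.64, 9.53, 9.91 and 9.84 in the knockout arrays, against 8.82, 9.17, 9.35 and 9.16 in the wild type arrays. The groups did not overlap, although the values were the most spread of the 10 genes in both groups (SD 0.177 in knockout and 0.218 in wild type). Srprb rose by 0.60 (SE 0.128, 95% interval 0.32 to 0.89, limma adjusted p = 0.00777), and by 0.50 without wild type replicate 1. The call held in 17 of 17 alternatives. Its within-group order resembled that of other members: wild type replicate 1 was the lowest of its group for 6 of the 10 genes, and knockout replicate 3 the highest of its group for 7.

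**Figure D3:**
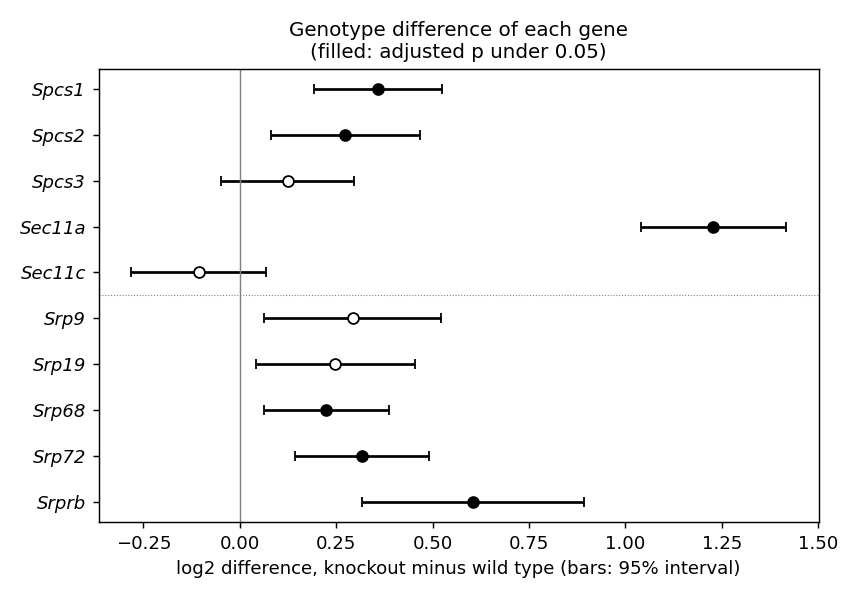
Log2 difference, knockout minus wild type, of each gene with its unadjusted 95% interval; filled points had a limma adjusted p under 0.05 over 18820 genes, and the dotted line separates signal peptidase genes (above) from SRP genes. Sec11a lies at 1.23, Srprb at 0.60 and the other 8 between -0.11 and 0.36.

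The remaining subunits of the targeting machinery with their own feature were Srp14 and Srpr. Srp14 was at 7.55, 7.58, 7.64 and 7.79 in the knockout arrays, against 7.02, 7.35, 7.17 and 7.12 in the wild type arrays, with no overlap. It rose by 0.47 (SE 0.0944, limma adjusted p = 0.00579) and was called in 17 of 17 alternatives. Srpr, the receptor subunit that binds the particle and partners Srprb, was at 11.15, 11.25, 11.30 and 10.92 in the knockout arrays, against 10.88, 11.01, 11.01 and 11.11 in the wild type arrays. The groups overlapped through knockout replicate 4, and the difference of 0.15 (SE 0.0989, adjusted p = 0.259) did not pass. Whether the 2 receptor subunits differed from each other in response was not tested. Srp54, the GTPase that binds the signal peptide, is encoded in mouse by near-identical genes, and the 2 features shared by Srp54a, Srp54b and Srp54c could not be assigned to one of them and stayed out of the fit. They averaged 11.28 ± 0.0449 and 11.02 ± 0.0632 in the knockout, against 11.07 ± 0.0701 and 10.83 ± 0.0625 in the wild type (SD, n = 4 each), differences of 0.20 and 0.19 with groups that did not overlap.

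Other genes of ER entry were read from lists written with earlier results of these data known. Of 12 genes of the Sec61 channel, Sec62, Sec63, TRAM and the TRAP complex, which receive the ribosome after targeting, 6 rose and 1 fell, with a median of 0.30 (4 to 7 higher and 1 lower over the 17 alternatives). Over the array 16.1% of genes were called higher and 12.6% lower. Sec61g, a small channel subunit, rose by 0.54 (SE 0.0943, limma adjusted p = 0.00308) and Sec61a1, the pore-forming subunit, by 0.36 (SE 0.0685, adjusted p = 0.00488). Sec62, which serves entry after translation and has a further role in ER turnover, fell by 0.62 (SE 0.0918, adjusted p = 0.00130). It was at 9.15, 9.04, 9.01 and 8.79 in the knockout arrays, against 9.62, 9.71, 9.57 and 9.58 in the wild type arrays. Sec63 of the same list went the other way, with a rise of 0.54 (SE 0.135, limma adjusted p = 0.0157) and no overlap.

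Of 16 genes of SRP-independent targeting and membrane insertion, which comprise the GET pathway for tail-anchored proteins and the ER membrane complex, 4 rose and 0 fell, with a median of 0.10. The share called, 25%, was near the 28.7% over the array. The called genes were Get4 (0.65, SE 0.0997, adjusted p = 0.00154), Emc3 (0.61, SE 0.0991, adjusted p = 0.00210), Get1 (0.49, SE 0.0769, adjusted p = 0.00179) and Caml (0.45, SE 0.123, adjusted p = 0.0234), the last with overlapping groups. The call of Caml was lost in 7 of 17 alternatives (adjusted p = 0.0508 to 0.109), among them the 3 other scalings and leaving out knockout replicate 3 or 4 or wild type replicate 1 or 4. At an unadjusted p under 0.05, 0 were lower. Quantile normalization added 1 lower call to this list and cyclic loess 2.

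Released signal peptides are cut further inside the membrane by signal peptide peptidase (Hm13), which was not analysed here. Its relatives, the SPP-like proteases Sppl2a, Sppl2b, Sppl2c and Sppl3, were measured. None of these 4 passed the limma test (0 also at an unadjusted p under 0.05, and 1 called higher without wild type replicate 4), with the smallest p-values for Sppl3 (0.17, adjusted p = 0.151), Sppl2c (-0.30, adjusted p = 0.173) and Sppl2b (0.15, adjusted p = 0.174). Sppl2c averaged 3.28 in the knockout and 3.58 in the wild type, both below the array medians. Of 4 nascent chain and ribosome binding factors none passed either, although 1 was called lower with each array centred on its median, after cyclic loess, and with trend and robust variance. At an unadjusted p under 0.05 there was 1, Rrbp1, a ribosome receptor of the ER (-0.22, adjusted p = 0.0920). Of 3 mitochondrial presequence peptidases, which do the matching cut at another organelle, 1 fell, Pmpcb (-0.25, SE 0.0740, adjusted p = 0.0300). That call was lost in 6 of 17 alternatives (0.0583 to 0.0794), among them leaving out knockout replicate 1, 2 or 3 or wild type replicate 1 or 2. Of all genes 28.7% were called, 16.1% higher and 12.6% lower. Lists of 3 or 4 genes are too small for their counts to be told apart from these shares. No test between these lists and the signal peptidase genes was made.

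**Figure D4:**
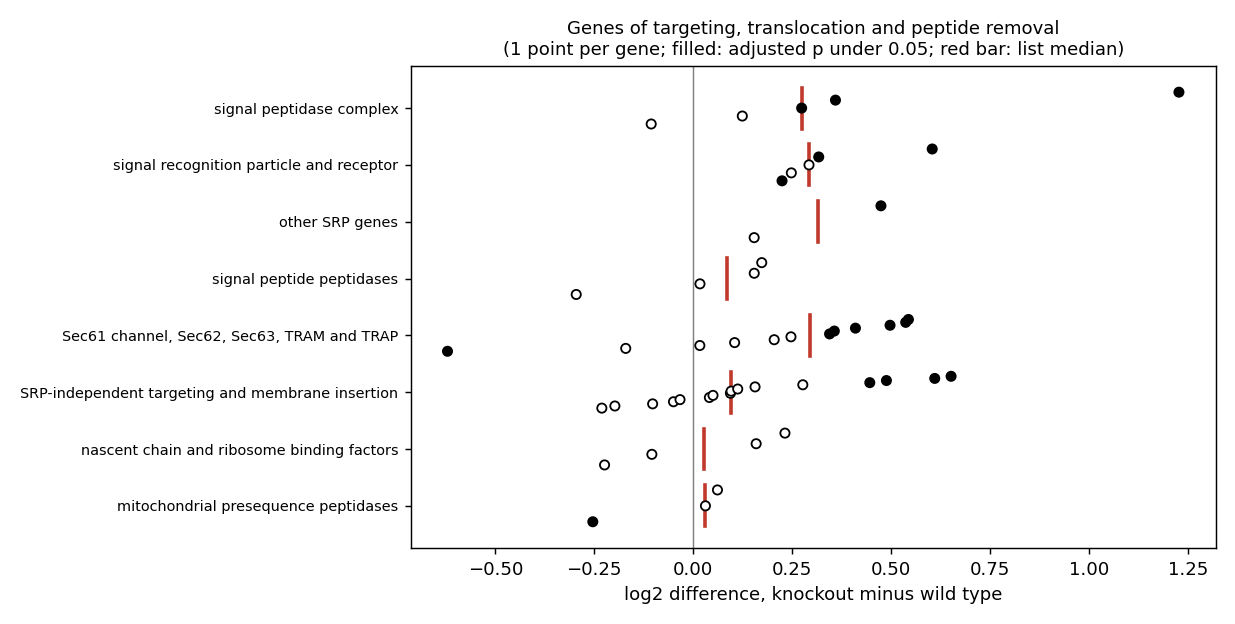
Log2 difference, knockout minus wild type, of each measured gene by list, 1 point per gene; filled points had a limma adjusted p under 0.05 and red bars are list medians. The medians are 0.27 for the signal peptidase genes, 0.29 for the SRP and receptor genes and 0.30 for the Sec61 and TRAP list. Other SRP genes are at 0.31, SRP-independent targeting and insertion at 0.10 and nascent chain and ribosome binding factors at 0.03. The SPP-like proteases, labelled signal peptide peptidases, are at 0.09 and the mitochondrial peptidases at 0.03. No test between lists was made.

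Profiles most like those of the catalytic pair were sought over the 8 arrays by the root mean square distance between values centred on each gene's mean. This measure is dominated by the genotype difference and is a description. Nearest to Sec11a were Grpel1 (distance 0.0896, difference 1.19), Amotl1 (0.0902, 1.28) and Spg21 (0.0928, 1.18). Nearest to Sec11c were Ube2o (0.0214, -0.12), Dnah5 (0.0268, -0.13) and Bmerb1 (0.0360, -0.09), none of which passed the limma test (adjusted p = 0.258, 0.220 and 0.426).

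The members fell into 3 kinds by how firmly the call stood. Spcs1, Sec11a, Srp72 and Srprb were called under each of the 17 alternatives, and Spcs3 and Sec11c under none. The calls of Spcs2, Srp9, Srp19 and Srp68 changed with the setting, with 8, 3, 3 and 5 of 17 alternatives calling them higher. No member changed the sign of its difference under any alternative.

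**Figure D5:**
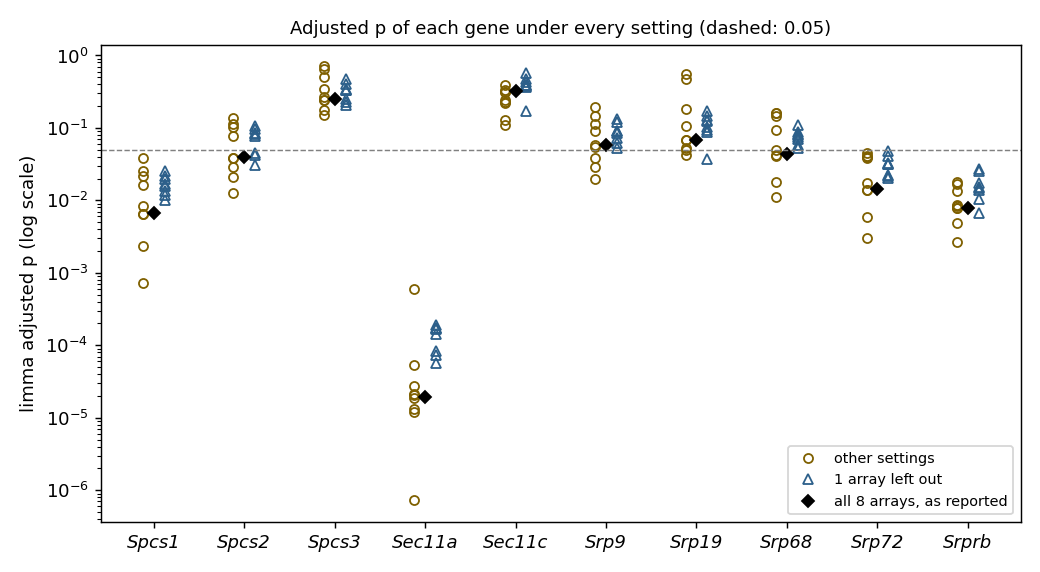
Limma adjusted p (log axis) of each gene with all 8 arrays (black diamonds), with 1 array left out (triangles) and under other settings (circles); the dashed line is 0.05. Spcs1, Sec11a, Srp72 and Srprb stay below the line throughout, Spcs3 and Sec11c above it, and the others cross it.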

How the data were processed

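RNA of 8 pancreas samples (100 ng each, whole-transcript cDNA) was measured on arrays. The deposited values are log2 signals that, per the submitters' processing notes, were made with RMA. The version, the array set it ran on and the chip definition are not given here. The log base is inferred from RMA and the range of values (0.964 to 14.4). Array medians lay between 4.94 and 5.05. Of 35556 features, 21218 carried 1 gene symbol in the platform annotation, 1881 several and 12457 none. Features with 1 symbol were reduced to the brightest per gene, giving 18820 genes. Entrez identifiers of 18790 were in the RefSeq table (GRCm38.p6), with 0 symbols differing.

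Genotype was fitted with limma 3.58.1 in R 4.3.3 (lmFit, eBayes, 6 residual degrees of freedom), with Benjamini-Hochberg adjustment over all genes and a threshold of 0.05. The paralogue contrast used an exact permutation test. The fit was tested on simulated data. Alternatives were quantile, median and cyclic loess scaling, genes above the median level, other feature rules, trend and robust variance, array weights, a replicate block and leaving out each array. The number of arrays limits the precision. Members and lists were chosen with earlier results of these data known. Named genes were the members, Sel1l, up to 3 per list with the smallest p (all of 4 called ones for the GET and ER membrane complex list) and the nearest profiles. Sec63 was named in addition, to set its direction beside that of Sec62. Promoters are from RefSeq; sequences of Sec11c, Srp19, Spcs3 and Srp68 were not used here. Python 3.11.15 with matplotlib 3.10.9 drew the figures.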

Additional observations from a re-analysis of the deposited data

Results flagged for a closer look

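In 22 groups of 4 arrays examined (10 members and Sel1l, 2 genotypes), 2 held a sample whose gap to the nearest other exceeded Dixon's 95% critical share of the group's range; chance flags about 1 group in 20. Srp9 in wild type replicate 1 was at 9.27, whereas the remaining wild type arrays lay at 9.63 to 9.68. Sel1l in Sel1L knockout replicate 4 was at 11.45, against 11.66 to 11.70 in the other knockout arrays. Without that knockout array Sec11a, Srprb, Spcs1 and Srp72 were still called.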

How the results depend on the processing

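The count of members called higher was 6 and ranged from 4 to 8 over 17 alternatives, with 4 to 5 when an array was left out. Of all 18820 genes, 3027 (16.1%) were called higher on the deposited values. That number was 1815 after quantile normalization, 2257 with each array centred on its median, 1987 after cyclic loess and 2204 to 2856 without 1 array. The count of 8 came from the fit on genes above the median level, where 32.0% of genes were called higher. The number of members called lower was 0 throughout, with limma; at an unadjusted p under 0.05 it was also 0. The number of genes called was 5406 and ranged from 3721 without knockout replicate 3 to 6226 with each array centred on its median. Replicate numbers are shared between the groups, and the labels do not pair them. Same-numbered arrays did not deviate together in a uniform way (correlations of deviations from the group means, over genes, of 0.222, 0.153, -0.273 and -0.0195). Larger correlations lay between differently numbered arrays, -0.526 for knockout replicate 1 with wild type replicate 2 and 0.413 for knockout replicate 1 with wild type replicate 3. With the replicate block 4678 genes and 4 members were called, and Spcs2 and Srp68 were not (adjusted p = 0.0765 and 0.0934). For Sec11a minus Sec11c the paired exact sign-flip test gave the same change of 1.33 with p = 0.125, the smallest 4 pairs can give, and leaving out an array gave 1.28 to 1.42. The other alternatives of this contrast stayed past the threshold, each at an exact permutation p of 0.0286, which adds nothing to the Sec11a gap. No alternative reversed a member's difference. The causes of the lost calls of Spcs2 and Srp68 were not tested. Counts for the pathway lists under the same settings were added after seeing the data. All signals of the members lay above the array medians.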
